A study of Mus musculus with 22 samples.

Results

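Cadherin and protocadherin genes were followed across the cell types of the mouse hypothalamus in ob/ob mice that were given fibroblast growth factor 1 (FGF1) into a cerebral ventricle (intracerebroventricular, icv). The genes were chosen by symbol. They were all rows of both deposited count tables that begin with Cdh followed by a digit or with Pcdh, without Pcdh15, and 72 of the 21260 symbols in either table met this rule. The table of nuclei held 33 of them, the table of whole cells 68, and 29 were in both. Of the 72 genes, 5 were type I classical cadherins, 13 type II classical cadherins, 4 atypical or truncated cadherins, 4 delta-1 protocadherins, 5 delta-2 protocadherins, 2 other non-clustered protocadherins and 39 clustered protocadherins.

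All 22 mice were male ob/ob mice aged 11 weeks, which lack leptin and are obese and diabetic, and each library came from the hypothalamus of 1 mouse. The icv FGF1 mice received 3 µg of FGF1 and the control mice received icv vehicle and were pair-fed to the FGF1 mice. Nuclei of 3 FGF1 and 3 vehicle mice at Day 1 and of 2 and 2 mice at Day 5 were profiled by single-nucleus RNA-sequencing (snRNA-seq). Whole cells of a separate cohort of 6 and 6 mice were profiled at Day 5 by single-cell RNA-sequencing (scRNA-seq). Per the paper, the mice for nuclei came from Jackson and those for cells from Janvier. The nuclei were taken from frozen punches of the hypothalamus. The cells were taken from a further section of the mediobasal hypothalamus, digested with enzymes. Every comparison is thus of FGF1 with pair-fed vehicle on the ob/ob background.

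Cadherins are calcium-dependent adhesion proteins of the cell surface. Classical cadherins bind the same cadherin on the neighbouring cell with their extracellular repeats and hold the actin cytoskeleton through beta-catenin and alpha-catenin inside the cell. The atypical cadherin Cdh13 (T-cadherin) has no such tail and is held in the membrane by a lipid anchor, and it also binds the hormone adiponectin. Non-clustered protocadherins adhere more weakly and signal through their tails, several of the delta-2 group by binding the WAVE actin regulator, whereas clustered protocadherins are expressed from tandem arrays of related exons and give single neurons a surface identity. In the walls of the third ventricle, ependymal cells and tanycytes are joined to each other by cadherin junctions.

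Total unique molecular identifiers (UMIs) per mouse ran from 2721087 to 16345981 in nuclei and from 2652897 to 11866269 in cells. At Day 1 the median UMIs per nucleus ranged from 2029 to 2816 after FGF1 and from 3178.5 to 3776 after vehicle, so the vehicle nuclei held more UMIs each. Per whole cell the medians ranged from 1142 to 2090 after FGF1 and from 1117.5 to 1631 after vehicle. Of the distinct barcode sequences, 318 of 24645 in nuclei and 1791 of 53065 in cells occurred in more than one library. Nuclei carried the cell type labels of the authors, and the clusters of cells were named here from marker genes. The labels Olig, COP and Micro held neuron transcripts at the level of neuron labels: the summed neuron markers of the Day 1 vehicle mice were 16566 to 23487 CPM (UMIs scaled to the same total in each library) in Olig nuclei, 14810 to 19582 in COP nuclei and 19064 to 22962 in Micro nuclei, against 2656 to 3452 in Epend nuclei. The label Tany met more of the astrocyte markers than of the tanycyte markers. How counting treated strand is not given in the sources used here, and if it ignored strand, reads of Cdh8, Cdh12, Cdh22, Cdh23, Cdh24, Pcdh8, Pcdh10 and Pcdh19 cannot be told apart from those of a gene that overlaps them on the other strand, which holds for all their values below. Cdh15 overlaps a gene on the same strand.

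Levels between cell types were described in vehicle mice and not tested, because the clusters were formed from the same cells. They are means over mice of UMIs summed per mouse and type, as CPM scaled over all types together. Of the non-clustered genes, 25 of 31 with a level reached 20 CPM in some type of the Day 1 nuclei, which covered 17 types, and 19 of 29 did so in the cells, which covered 11 types. The order of types was flat in nuclei and steeper in cells. The level in the first type was a median of 1.22 times that in the second in Day 1 nuclei and 1.92 times in cells.

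**Figure D1:**
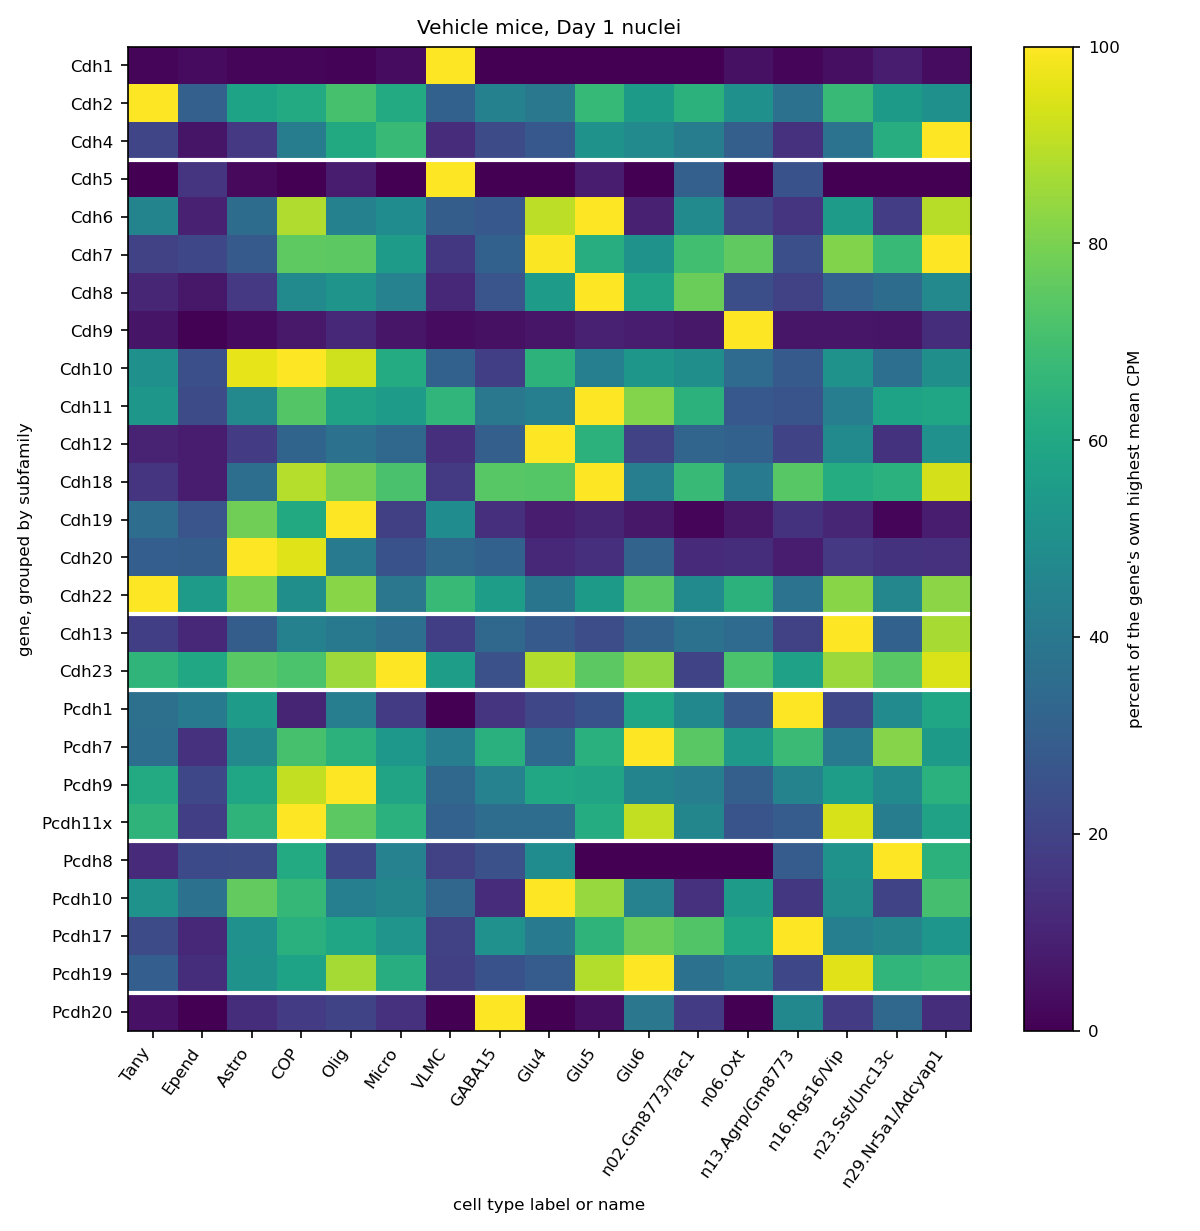
Level of each cadherin and protocadherin gene (rows, white lines between subfamilies) in 17 labelled types of nuclei (columns) in the vehicle mice at Day 1, as percent of the gene's own highest mean CPM. Most genes spread over neuronal and glial labels, whereas Cdh1 (143.9 CPM in VLMC) and Cdh9 (686.3 CPM in n06.Oxt) stand in a single column.

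Among the type I classical cadherins, Cdh2 (N-cadherin), the main cadherin of neural tissue, was present in every type of cells and reached 431.7 ± 55.3 CPM (SD, n = 6 mice) in tanycytes, followed by 187.3 ± 25.6 CPM in astrocytes. The ranges over mice, 360.0 to 502.4 and 146.9 to 227.4 CPM, did not overlap. In Day 1 nuclei Cdh2 was again first in Tany, at 478.9 ± 110 CPM (n = 3), with Olig next at 339.4 ± 34.3 CPM. Cdh1 (E-cadherin), the cadherin of epithelia, was at 143.9 ± 66.6 CPM in the Day 1 nuclei labelled VLMC (vascular leptomeningeal cells; 69.9 to 199 CPM over 3 mice, 25 UMIs in all) and 12.5 times lower in the type that came second. Cdh4 (R-cadherin) was first in the n29.Nr5a1/Adcyap1 neurons, at 299.1 ± 77.0 CPM.

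Type II classical cadherins, whose combinations differ between brain nuclei, included genes that came first in neuronal labels and genes that came first in glia. Cdh9 was first in the oxytocin neurons (n06.Oxt) on both days. In the Day 1 vehicle mice its level there was 599.1, 688.7 and 771.1 CPM, against 91.1 ± 15.7 CPM in n29.Nr5a1/Adcyap1, the type in second place. At Day 5 its vehicle mean in n06.Oxt was 446 CPM and 128.8 CPM in Glu5, the type in second place.

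Cdh18 was first in Glu5 (1631 ± 142 CPM) and second in n29.Nr5a1/Adcyap1 (1523 ± 295 CPM), a gap smaller than the spread over mice. Cdh12 was at 731.6 ± 95.7 CPM in Glu4 (n = 2) and 470.1 ± 141 CPM in Glu5. Cdh8 was first in Glu5 at 559.7 ± 265 CPM, with a wide spread. The paper states that neurons were removed from the cells, and no cluster of cells was named as neurons. There Cdh12 and Cdh18 stayed at or under 9.14 and 4.78 CPM in all 11 types.

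Of the glial type II genes, Cdh19 and Cdh20 were first in Olig (290.8 ± 44.1 CPM) and Astro (360.6 ± 104 CPM) nuclei and in oligodendrocytes (61.5 CPM, 45.0 to 76.6 over 6 mice) and astrocytes (51.5 ± 5.23 CPM) among the cells. Cdh20 was nearly as high under the label COP, at 342.9 ± 49.6 CPM in nuclei and 47.5 ± 36.3 CPM in cells. Among cells COP are committed oligodendrocyte precursors, while among nuclei the study's COP label takes in oligodendrocyte precursor cells as well. By these values astrocytes and COP were not separated by their spread. Cdh22 was first in tanycytes (27.9 ± 8.06 CPM) and second in astrocytes (21.9 ± 6.09 CPM), again within the spread. Cdh7 was first in neurons among the nuclei, at 139.8 ± 24.2 CPM in n29.Nr5a1/Adcyap1 at Day 1 and 183.2 ± 29.7 CPM in Glu4 at Day 5 (n = 2). Among the cells, which hold no named neurons, it was at 22.2 ± 2.44 CPM in ependymal cells and 6.18 ± 9.83 CPM in the next type, COP.

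Cdh5 (VE-cadherin), which holds endothelial junctions, marked the vessels. It reached 328.8 ± 66.0 CPM in endothelial cells (245.3 to 404.9 CPM over 6 mice) and 50.9 ± 63.6 CPM in VLMC, 6.46 times less. Of the non-clustered genes in cells it alone met the limit of 100 CPM and 3 times the second type.

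**Figure D2:**
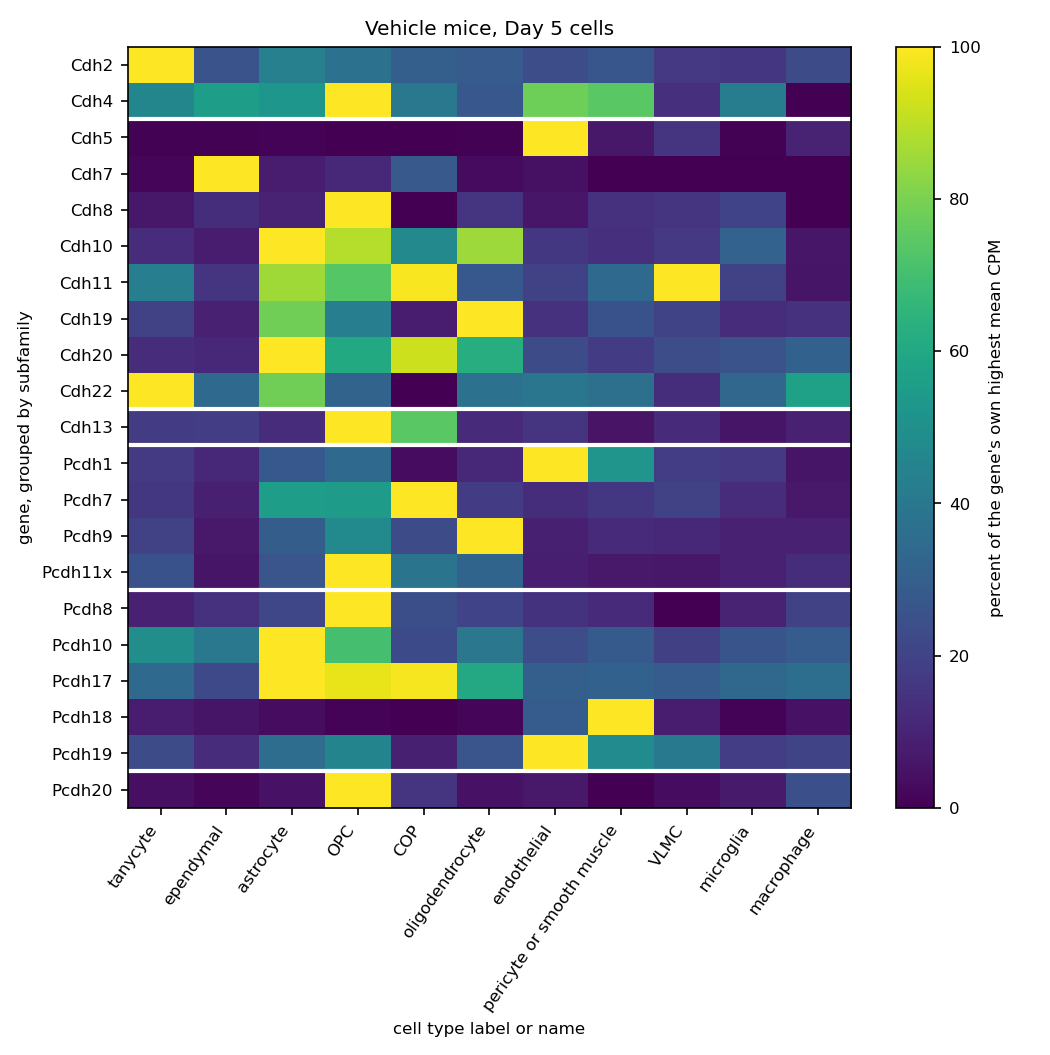
Level of each cadherin and protocadherin gene that reached 10 CPM (rows, white lines between subfamilies; clustered genes left out) in 11 named types of cells (columns) in the vehicle mice at Day 5, as percent of the gene's own highest mean CPM. Cdh5 (328.8 CPM) stands out in endothelial cells, Cdh2 (431.7 CPM) in tanycytes, Pcdh9 (518.1 CPM) in oligodendrocytes and Pcdh20 (65.1 CPM) and Pcdh11x (217.0 CPM) in oligodendrocyte precursors.

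In the vehicle mice Cdh13 was highest in particular neuron labels among the nuclei and in precursors among the cells. In Day 1 nuclei it was first in n16.Rgs16/Vip (727.8 ± 91.9 CPM) and second in n29.Nr5a1/Adcyap1 (633 ± 118 CPM). The other neuron labels were lower. Their means all lay under that of Olig (294.4 ± 105 CPM), from n02.Gm8773/Tac1 (274.7 ± 16.9 CPM) to Glu5 (171.7 ± 70.7 CPM) and n13.Agrp/Gm8773 (143.4 ± 53.7 CPM). Tany came at place 15 of 17 with 135.6 ± 68.9 CPM and Epend at place 17 with 82.3 ± 26.3 CPM. In cells Cdh13 was first in oligodendrocyte precursors (OPC, 85.9 ± 18.0 CPM) and second in COP (64.0 ± 45.1 CPM), and tanycytes were at place 4 of 11 with 15.2 ± 3.11 CPM.

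The delta-1 protocadherins, whose tails carry a binding motif for a protein phosphatase, did not share a first type. Pcdh9 was first in oligodendrocytes, at 518.1 ± 89.7 CPM in cells and 6194 ± 1836 CPM in Olig nuclei. In Day 1 nuclei it was high throughout, with COP next at 5616 CPM and 1350 CPM in the lowest of the 17 types. Pcdh11x was at 217.0 ± 22.7 CPM in OPC and 83.1 ± 73.9 CPM in COP, with ranges that met (187.6 to 255.8 and 0 to 188.8 CPM). Pcdh7 was at 284.1 ± 43.0 CPM in COP and 159.7 ± 13.3 CPM in astrocytes. Pcdh1 was first in endothelial cells (70.7 ± 9.84 CPM). Among the nuclei, which include neurons, Pcdh7 was first at Day 1 in Glu6 (2112 ± 551 CPM, n = 2) and at Day 5 in COP (1297 ± 335 CPM, n = 2), and Pcdh1 was first on both days in n13.Agrp/Gm8773 (32.4 ± 11.5 CPM at Day 1).

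Among the delta-2 protocadherins, Pcdh17 was at 296.8 ± 36.5 CPM in astrocytes, 292.8 ± 219 CPM in COP and 286.6 CPM (241.2 to 383.7 over 6 mice) in OPC, which did not differ beyond their spread. Pcdh10 was first in astrocytes (307.3 ± 26.3 CPM) with OPC next (217.1 ± 23.3 CPM). In Day 1 nuclei neurons came first for both, n13.Agrp/Gm8773 for Pcdh17 (519.7 ± 170 CPM) and Glu4 for Pcdh10 (245.6 ± 24.3 CPM, n = 2). Pcdh18 and Pcdh19 were first on vessels. Pcdh18 was at 91.2 ± 24.8 CPM in pericytes or smooth muscle and 26.6 ± 9.60 CPM in endothelial cells, and Pcdh19, whose loss causes a form of epilepsy in people, at 96.6 ± 34.5 CPM in endothelial cells and 46.8 ± 38.6 CPM in pericytes or smooth muscle. In nuclei Pcdh19 was first in the neurons labelled Glu6 (193.2 CPM). Pcdh20 was at 65.1 ± 9.83 CPM in OPC and lower in the next type, macrophages.

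The clustered protocadherins were almost confined to the table of cells, which held 38 rows against 1 in nuclei. Isoforms of the alpha and of the gamma array share their last exons, at the end of the transcript that the 3′ kit reads. The division of counts among these rows is therefore uncertain, which also holds for single rows named below, and they are given mainly as sums. The 21 Pcdhb rows summed to 168 ± 21.0 CPM in OPC, 106.3 ± 16.6 CPM in tanycytes, 94.7 ± 13.7 CPM in astrocytes and 27.7 ± 14.2 CPM in microglia. The 15 Pcdhg rows summed to 70.6 ± 10.8 CPM in astrocytes. Single rows were low, with a median of 5.14 CPM in their highest type.

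Nuclei and cells gave different levels for the same gene. Supplier of the mice, part of the hypothalamus and preparation also differed between them, and the part of each in these levels was not tested. For nuclei the authors counted reads in introns, and these genes are long. The 33 non-clustered genes spanned a median of 123.3 kb against 21.4 kb over 20415 genes, and Cdh13, at chr8:118283733-119324921 of GRCm38 on the plus strand, spanned 1041 kb. In the Day 5 vehicle mice the level in Astro nuclei was a median of 5.88 times that in astrocytes over the 15 genes that reached 5 CPM in both, from 0.647 times for Pcdh10 to 19.3 times for Pcdh9. This ratio rose with gene span across genes (Pearson's r = 0.79, Spearman's rho = 0.79, a description over genes that share the same libraries). Between Olig nuclei and oligodendrocytes it ran from 0.691 for Pcdh10 to 33.4 for Cdh13 over 14 genes. Levels of nuclei and cells are therefore not set against each other below.

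The effect of icv FGF1 was tested in each type on UMIs summed per mouse, with edgeR's quasi-likelihood test. A gene is called at a false discovery rate (FDR, the Benjamini-Hochberg adjusted p over all genes tested in that type) under 0.05. The Day 1 nuclei allowed 278 tests of these genes in 18 types and 26 of the 33 genes were tested in at least one. Of these tests 3 were called, all higher in the FGF1 mice, against 1.05% of all tests over all genes, and 22 had an unadjusted p under 0.05. The Day 5 nuclei allowed 205 tests in 11 types, of which 2 were called, both higher, against 0.288% of all tests, and 33 had an unadjusted p under 0.05. In the Day 5 cells 94 tests in 8 types covered 26 of the 68 genes and 6 were called, 5 higher and 1 lower, against 4.17% of all tests, and 26 had an unadjusted p under 0.05. These counts are small and nothing is read from them about the genes as a group. The 11 calls fell on 6 genes, Cdh13, Cdh20, Cdh22, Cdh11, Pcdh9 and Pcdh17.

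Cdh13 in Tany and Epend nuclei at Day 1 gave the largest of the 11 called differences. In Tany nuclei at Day 1, the normalized level, which here and below for a difference is CPM over the genes tested in that type, was 1432, 1961 and 1490 in the 3 FGF1 mice and 108.4, 140.4 and 305.0 in the 3 vehicle mice. Each FGF1 mouse lay far above each vehicle mouse. The log2 fold change was 3.20 (SE 0.474, edgeR FDR 0.00167), from 702 UMIs in the FGF1 and 44 in the vehicle mice. Among the 16 genes of the group tested in Tany nuclei, Cdh13 alone was called, against 9.14% of all genes tested there.

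In Epend nuclei at Day 1, Cdh13 was at 1609, 1258 and 1709 normalized CPM in the FGF1 mice and at 237.2, 124.3 and 200.4 in the vehicle mice. The groups again did not overlap. This was a log2 fold change of 2.99 (SE 0.351, edgeR FDR 2.44e-05), from 157 and 19 UMIs. Cdh13 was the called one of 4 genes tested there, against 19.0% of all genes tested.

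At Day 1 each batch of the metadata, which do not say what a batch is, held 1 FGF1 and 1 vehicle mouse. The ratio of FGF1 to vehicle within batches 3, 4 and 5 was 4.69, 18.1 and 10.6 in Tany and 8.03, 5.30 and 13.7 in Epend, so the direction was the same in every batch. The share of Tany nuclei with a Cdh13 UMI was 76.0 to 88.4% in FGF1 mice and 28.1 to 35.0% in vehicle mice. In VLMC nuclei, 12 to 28 a mouse, it was 8.33 to 21.4% in 2 FGF1 mice and 20.0 to 36.8% in 3 vehicle mice. Such shares depend on the UMIs per nucleus, whose medians were lower in the FGF1 mice, and they were not tested.

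The place of Tany and Epend among the types differed between the arms. By total UMIs, a scale that can be compared between the arms, Cdh13 in Tany was 1209 ± 312 CPM (SD, n = 3) after FGF1 and 142.0 ± 84.5 CPM after vehicle, and in the n16.Rgs16/Vip neurons, the first type of the vehicle mice, 639.7 ± 77.6 CPM after vehicle and 995.0 ± 455 CPM after FGF1. Within the FGF1 mice Tany was at place 1 of 24 types and Epend at place 4, but Tany (1204 ± 307 CPM) and n16.Rgs16/Vip at place 2 (1121 ± 623 CPM) were not separated by their spread. Cdh13 was tested in 15 further types of Day 1 nuclei and called in none by edgeR, with an FDR of 0.543 or higher. In Astro nuclei its log2 fold change was 1.196 (SE 0.560), with 2 of 3 FGF1 mice above all vehicle mice and within-batch ratios of 0.807, 3.68 and 3.77. In the other 14 types it ran from -0.45 in GABA15 to 0.68 in COP.

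**Figure D3:**
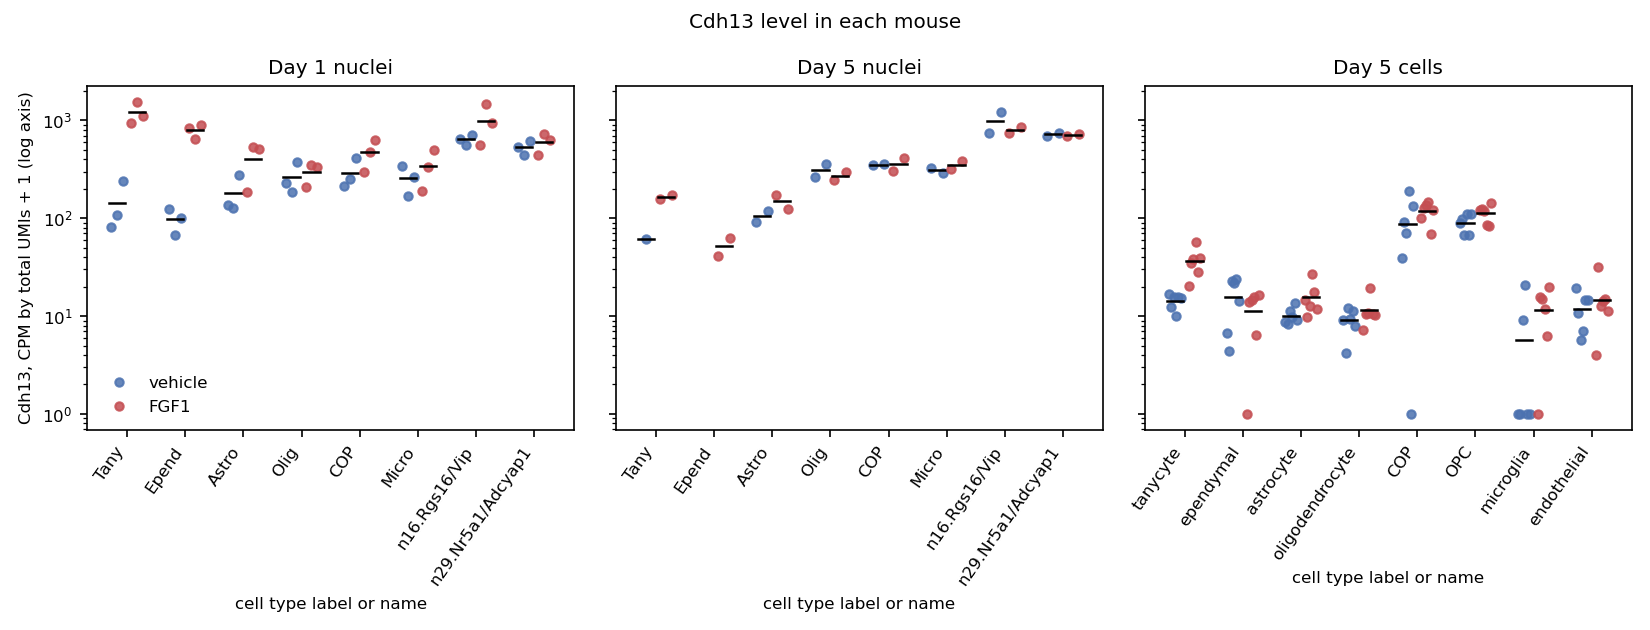
Cdh13 in each mouse (points; black bars are means) as CPM by total UMIs plus 1 on a log axis, in 8 types of Day 1 nuclei, Day 5 nuclei and Day 5 cells. In Day 1 nuclei the FGF1 mice stand high in Tany (mean 1209 CPM) and Epend (mean 790.9 CPM) and apart from the vehicle mice (means 142.0 and 96.2). In Day 5 cells all 6 FGF1 mice lie above all 6 vehicle mice in tanycytes.

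At Day 5 too few Tany and Epend nuclei were left for a test, since one vehicle mouse had 9 and 3 and the other 14 and 8. By total UMIs Cdh13 was at 157.7 and 170.7 CPM in Tany nuclei of the 2 FGF1 mice, from 23 and 57 UMIs, and at 60.1 CPM in the vehicle mouse with 14 nuclei, from 4 UMIs. These Day 5 values of the FGF1 mice were well under those of the FGF1 mice at Day 1, which came from other mice and batches, and the change between days could not be tested in these labels. In Epend nuclei of the Day 5 FGF1 mice Cdh13 was at 39.8 and 61.7 CPM, from 6 and 8 UMIs.

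In whole tanycytes at Day 5 Cdh13 was higher after FGF1 as well. The lowest, median and highest normalized levels were 20.0, 36.8 and 57.3 CPM in the 6 FGF1 mice and 9.0, 14.1 and 15.6 CPM in the 6 vehicle mice. All FGF1 mice lay above all vehicle mice. The log2 fold change was 1.45 (SE 0.196, edgeR FDR 0.000114). Tanycytes were made of clusters 0, 7 and 10. Cluster 7 held 29.6% of the tanycytes of FGF1 mice (2.41 to 54.9% by mouse) and 11.3% of those of vehicle mice (4.74 to 29.4%), so the shares overlapped. Within cluster 0 alone the log2 fold change was 1.38 (edgeR FDR 0.000308) and within cluster 7 alone 1.38 (edgeR FDR 0.00864). It was thus about as large inside clusters 0 and 7 as in the merged class, and no value is given for cluster 10 alone. In ependymal cells Cdh13 had too few UMIs for a test, 46 in the FGF1 and 41 in the vehicle mice. By total UMIs it was at 10.3 ± 6.20 CPM (SD, n = 6) after FGF1 and 14.7 ± 8.55 CPM after vehicle there, with overlapping groups and the mean lower after FGF1, unlike in Epend nuclei at Day 1.

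The difference in tanycytes was compared with that in 4 other types of cells by an exact two-sided permutation test of the mice on log2(CPM + 1), chosen after the values were seen. It exceeded that in OPC by 1.06 (exact permutation p = 0.00866, adjusted over the 4 pairs 0.0173), that in oligodendrocytes by 1.01 (exact permutation p = 0.00649, adjusted 0.0173) and that in astrocytes by 0.85 (p = 0.0216, adjusted 0.0288). It was not separated from that in COP (-0.12, exact permutation p = 0.972), whose vehicle values spread from 0 to 119.4 CPM. Each of the 6 batches of cells held 1 FGF1 and 1 vehicle mouse. Exact permutation of the labels within batches, also chosen after the values were seen, cannot go below p = 0.0312 and gave p = 0.0312 for OPC, 0.0625 for oligodendrocytes and 0.0625 for astrocytes. Each was 0.0833 when adjusted over the 4 pairs, so none passed 0.05 within batches, and the direction was the same in 6, 5 and 5 of 6 batches.

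Marker genes moved with Cdh13. In Tany nuclei at Day 1 the 8 tanycyte markers summed to 851.2 to 1222 CPM in FGF1 and 1234 to 1875 in vehicle mice, the 8 astrocyte markers to 2268 to 3032 and 4893 to 5551, and the 7 ependymal markers to 88.2 to 172.9 and 403.3 to 727.4. In Epend nuclei the ependymal markers summed to 1286 to 1920 in FGF1 and 3452 to 5114 in vehicle mice, and the tanycyte markers Lhx2 and Rax were at 0 in the FGF1 mice. The astrocyte markers in Epend nuclei summed to 932.9 to 2057 after FGF1 and 3068 to 3824 after vehicle. Neuron markers summed to 5649 to 8392 in Tany nuclei after FGF1 and 6788 to 8552 after vehicle, and in Epend nuclei to 2996 to 6747 and 2656 to 3452. The 8 oligodendrocyte markers summed to 122.9 to 212.8 after FGF1 and 235.2 to 392.5 after vehicle in Tany nuclei, and to 53.8 to 122.5 and 230.9 to 372.4 in Epend nuclei. The 8 markers of pericytes or smooth muscle were also lower in Epend nuclei, at 0 to 30.6 and 33.0 to 214.8. The part of these shifts in the Cdh13 result was not tested.

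**Figure D4:**
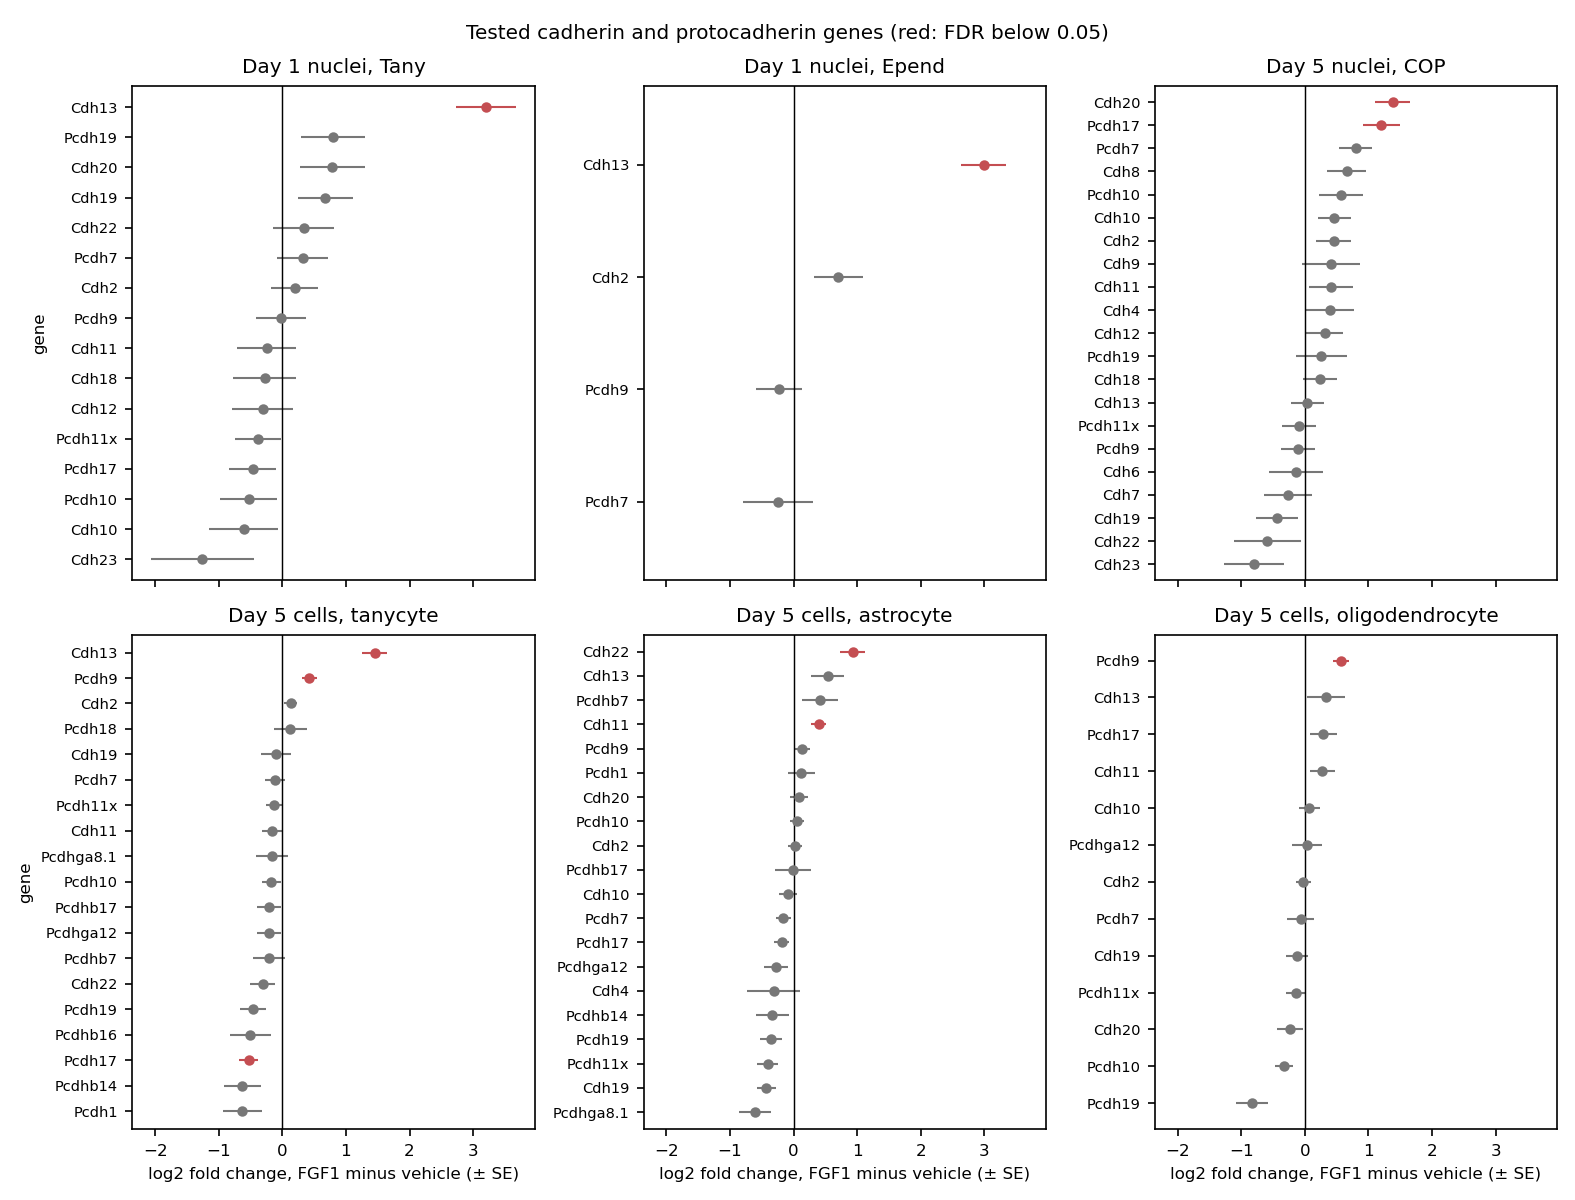
Log2 fold change of FGF1 over vehicle (points, with the SE as bars) for every cadherin and protocadherin gene tested in 6 fits, red where the edgeR FDR was under 0.05. Cdh13 stands apart in Tany (3.20) and Epend (2.99) nuclei and in tanycytes (1.45), and the called differences in the other panels are smaller.

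Cdh20, a type II cadherin, was called in Olig nuclei at Day 1 and in COP nuclei at Day 5. In Olig nuclei at Day 1 it was at 327.3, 634.2 and 424.9 normalized CPM in the FGF1 mice and at 132.7, 128.0 and 164.5 in the vehicle mice. The groups did not overlap, and within batches 3, 4 and 5 the ratios were 1.99, 4.78 and 3.32. Its log2 fold change was 1.72 (SE 0.296, edgeR FDR 0.0358), and Cdh20 was the called one of 21 genes tested in Olig, against 0.222% of all genes there. With the batch as a block it was 1.67 and no longer called (edgeR FDR 0.234). In these nuclei the 7 COP markers summed to 229.2 to 346.3 CPM after FGF1 and 162.0 to 227.9 after vehicle, and the 8 oligodendrocyte markers to 974.0 to 1868 and 1745 to 2658, and their part in the result was not tested. In Olig nuclei at Day 5 Cdh20 was at 226.8 and 228.9 normalized CPM in the FGF1 mice and 145.2 and 192.8 in the vehicle mice, a log2 fold change of 0.37 (SE 0.224, edgeR FDR 0.806) that was not called, and the Day 5 minus Day 1 difference was -1.30 (SE 0.422, unadjusted p = 0.00611, edgeR FDR over 0.99).

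In COP nuclei at Day 5 Cdh20 was at 572.0 and 663.8 normalized CPM in the FGF1 mice and at 285.2 and 159.6 in the vehicle mice, the last from 12 UMIs. The pairs did not overlap. Cdh20 thus rose by 1.38 on the log2 scale (SE 0.281, edgeR FDR 0.00628), and 2 of 21 genes tested were called in these nuclei, against 1.28% of all genes. At Day 1 the COP value was 1.02 (SE 0.252, edgeR FDR 0.279), with all 3 FGF1 mice above all vehicle mice. In whole COP, oligodendrocytes and astrocytes at Day 5 the log2 fold changes of Cdh20 were -0.04 (SE 0.368), -0.23 (SE 0.202) and 0.08 (SE 0.135), none called.

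The other call in Day 5 COP nuclei was Pcdh17, a delta-2 protocadherin that binds the WAVE complex. It was at 446.4 and 417.0 normalized CPM in the FGF1 mice and at 225.8 and 119.7 in the vehicle mice, the last from 9 UMIs. The log2 fold change was 1.204 (SE 0.291, edgeR FDR 0.0304), a call that was lost in some of the alternatives given below. In whole COP at Day 5 Pcdh17 was not called and had the opposite sign, at -0.94 (SE 0.429, edgeR FDR 0.401). The makeup of the Day 5 COP nuclei differed between the arms. The 7 COP markers summed to 2150 to 2739 CPM in FGF1 and 560.4 to 635.4 in vehicle mice, the 8 oligodendrocyte markers to 1147 to 1704 and 119.9 to 487.1, and the 6 OPC markers to 92.2 to 242.2 and 431.6 to 455.7. Their part in the Cdh20 and Pcdh17 results was not tested. With 2 mice a group the counts turn on single libraries. Without vehicle mouse 28, 12 of 212 tests of these genes were called over all types of Day 5 nuclei, against 0.578% of all tests over all genes in the same fits, where the lone vehicle mouse is assumed to vary like the FGF1 mice. Without vehicle mouse 38 it was 1 of 217, against 2.13%.

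In whole cells the 1 call that was lower after FGF1 was Pcdh17. In tanycytes the lowest, median and highest normalized levels were 47.5, 61.0 and 83.6 CPM in FGF1 mice and 64.9, 91.6 and 105.7 CPM in vehicle mice. The groups overlapped, with 3 of 6 FGF1 mice below all vehicle mice. Pcdh17 fell, with a log2 fold change of -0.53 (SE 0.153, edgeR FDR 0.0436), and within cluster 0 alone -0.50 (edgeR FDR 0.0292), while in cluster 7 alone it was -0.42 (edgeR FDR 0.318) and not called. The call lay near the threshold, and 11 of its 19 alternatives missed it. In the other types Pcdh17 was not called and ran from -0.94 in COP to 0.29 in oligodendrocytes.

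Pcdh9, a delta-1 protocadherin, was higher after FGF1 in 2 types of cells. In oligodendrocytes the lowest, median and highest normalized levels were 461.6, 591.7 and 747.1 CPM in FGF1 mice and 352.5, 382.0 and 487.2 CPM in vehicle mice. There 5 of 6 FGF1 mice lay above all vehicle mice. Pcdh9 rose, with a log2 fold change of 0.57 (SE 0.123, edgeR FDR 0.0129), and Pcdh9 was the called one of 13 genes tested, against 2.25% of all genes. The arms filled the oligodendrocyte clusters in different proportions. Cluster 2 held 55.6% of those of FGF1 mice (15.5 to 75.3% by mouse) and 83.4% of those of vehicle mice (78.0 to 91.4%), and cluster 11 held 37.5% (11.3 to 81.3%) and 2.47% (0.964 to 7.62%). In the vehicle mice Pcdh9 was higher in cluster 11, at 674.3 ± 139 CPM by total UMIs (467.0 to 873.4 over 6 mice), than in cluster 2, at 375.9 ± 50.6 CPM (324.9 to 451.4). The TMM scaling over all types narrowed this gap to 607.8 ± 139 and 518.3 ± 92.7 CPM, within the spread over mice. The part of the cluster shares in the Pcdh9 result was not tested. Within cluster 11 alone its log2 fold change was -0.02 (edgeR FDR 0.971) and within cluster 2 alone 0.38 (SE 0.119, edgeR FDR 0.135). In cluster 12, the remaining oligodendrocyte cluster, it was 0.31 (SE 0.182, edgeR FDR 0.514), and none of these was called.

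In tanycytes Pcdh9 was at 97.9, 118.6 and 147.5 normalized CPM (lowest, median, highest) in FGF1 mice and at 73.6, 86.7 and 97.2 CPM in vehicle mice. All FGF1 mice lay above all vehicle mice by a narrow margin. The rise was 0.43 on the log2 scale (SE 0.116, edgeR FDR 0.0325), and 8 of its 19 alternatives missed the threshold. No single tanycyte cluster was called for Pcdh9, with 0.41 in cluster 0 (edgeR FDR 0.0671), 0.45 in cluster 7 (edgeR FDR 0.210) and 0.25 in cluster 10 (edgeR FDR 0.682). The 3 calls among 19 genes tested in tanycytes compare with 5.08% of all genes there. In Olig nuclei at Day 5 the value was 0.40 (SE 0.163, edgeR FDR 0.614), which was not called.

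Astrocytes among the cells gave 2 calls of 20 genes tested, against 12.6% of all genes tested there. Cdh22 was at 25.5, 38.7 and 50.8 normalized CPM (lowest, median, highest) in FGF1 mice and at 14.9, 16.1 and 26.5 CPM in vehicle mice. Of the FGF1 mice 5 of 6 lay above all vehicle mice. Cdh22 rose, with a log2 fold change of 0.93 (SE 0.198, edgeR FDR 0.00224). Cdh11 (OB-cadherin), which is best known from bone-forming and mesenchymal cells, was at 60.1, 66.3 and 76.1 CPM in FGF1 mice and at 46.4, 50.5 and 55.4 CPM in vehicle mice. Its groups did not overlap, and its log2 fold change was 0.40 (SE 0.120, edgeR FDR 0.0278). For Cdh11 8 of 19 alternatives missed the threshold.

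The astrocytes of the arms came mostly from different clusters. Cluster 4 held 69.0% of the astrocytes of FGF1 mice (47.9 to 93.1% by mouse) and 8.07% of those of vehicle mice (3.74 to 18.4%), and cluster 1 the rest. Within cluster 1 alone the log2 fold change of Cdh22 was 0.30 (SE 0.357, edgeR FDR 0.843) and within cluster 4 alone 0.06 (SE 0.311, edgeR FDR 0.990), so the call for Cdh22 was of the merged astrocyte class and was not found inside either cluster. For Cdh11 the values were 0.38 (SE 0.191, edgeR FDR 0.505) and 0.42 (SE 0.251, edgeR FDR 0.667), as large as in the merged class but not called. The 8 tanycyte markers summed to 149.4 to 344.4 CPM in astrocytes of FGF1 mice and 100.5 to 120.2 in those of vehicle mice, and the 8 astrocyte markers to 15602 to 18911 and 12988 to 15090. Their part in these results was not tested. Cdh22 overlaps Gm14397 on the other strand.

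**Figure D5:**
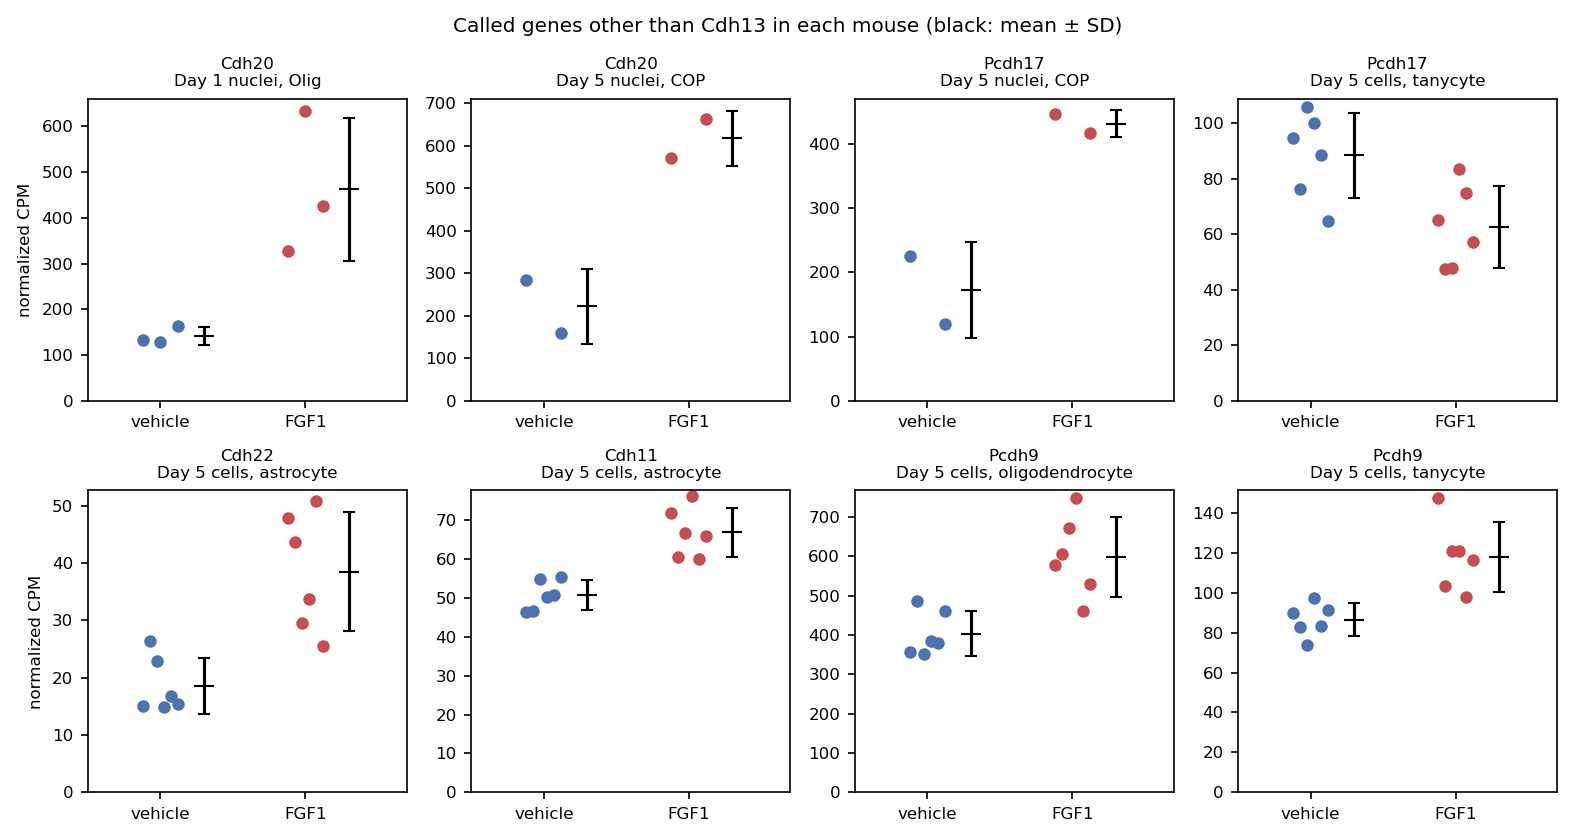
Normalized CPM in each mouse (points) with mean ± SD (black) for the 8 called differences other than Cdh13, on axes that start at 0. The arms are apart for Cdh20 and Pcdh17 in nuclei, with 2 or 3 mice each, and meet or overlap for Cdh22 in astrocytes, Pcdh9 in oligodendrocytes and Pcdh17 in tanycytes.

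The promoters of the called genes are given to show what sequence lies at their starts. RefSeq (GRCm38.p6) promoter windows, from 250 bases before to 50 after the start, were at hand for 4 of the 6 called genes. The windows are written 5′ to 3′ on the strand of the gene, with matches to CCAAT on either strand in capitals (ATTGG where the match is on the other strand).
Cdh20: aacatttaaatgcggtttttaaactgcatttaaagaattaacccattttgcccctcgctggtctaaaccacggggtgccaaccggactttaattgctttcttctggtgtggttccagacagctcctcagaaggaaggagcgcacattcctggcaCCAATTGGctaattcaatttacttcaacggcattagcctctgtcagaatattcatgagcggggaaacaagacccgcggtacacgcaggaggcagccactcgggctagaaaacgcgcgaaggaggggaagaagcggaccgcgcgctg
Cdh22: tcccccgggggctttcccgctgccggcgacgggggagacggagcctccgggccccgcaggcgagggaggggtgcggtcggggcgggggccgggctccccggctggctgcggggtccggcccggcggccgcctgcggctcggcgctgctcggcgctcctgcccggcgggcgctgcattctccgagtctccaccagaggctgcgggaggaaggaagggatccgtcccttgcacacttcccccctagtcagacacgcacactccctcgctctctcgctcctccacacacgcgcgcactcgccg
Pcdh17: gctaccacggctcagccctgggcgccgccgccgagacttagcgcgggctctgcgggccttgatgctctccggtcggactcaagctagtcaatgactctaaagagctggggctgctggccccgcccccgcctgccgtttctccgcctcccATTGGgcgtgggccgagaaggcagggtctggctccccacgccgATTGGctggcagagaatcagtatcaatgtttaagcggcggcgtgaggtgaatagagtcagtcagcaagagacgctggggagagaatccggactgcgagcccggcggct
Pcdh9: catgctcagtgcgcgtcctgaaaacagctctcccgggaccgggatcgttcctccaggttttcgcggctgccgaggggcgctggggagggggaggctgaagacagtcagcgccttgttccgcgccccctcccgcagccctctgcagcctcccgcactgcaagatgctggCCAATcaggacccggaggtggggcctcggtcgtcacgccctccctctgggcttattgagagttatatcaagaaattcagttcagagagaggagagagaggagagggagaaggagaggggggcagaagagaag

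These windows are at chr1:104768270-104768569 (plus strand, Cdh20), chr2:165234688-165234987 (minus strand, Cdh22), chr14:84443313-84443612 (plus strand, Pcdh17) and chr14:93890630-93890929 (minus strand, Pcdh9, the first of its windows). Cdh20 held 2 matches that overlap on opposite strands, Pcdh17 held 2, Pcdh9 held 1 and Cdh22 held 0. Of the 21 non-clustered genes with a window 14 held CCAAT (66.7%), against 41.1% of 27025 symbols. The motifs TGANTCA, TGACGTCA and CCGGAA, searched on both strands, were in 7.81%, 1.79% and 14.9% of the 32851 windows and in none of the 4 shown. The 4 windows are rich in CG dinucleotides, with 18, 38, 26 and 18 in that order, against a median of 7 over all windows.

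In several glial and vascular types edgeR called none of these genes. At Day 1 these were 0 of 20 in Micro nuclei (0 with an unadjusted p under 0.05, 0.0% of all genes called), 0 of 18 in Astro nuclei (0 with an unadjusted p under 0.05, against 1.55% of all genes called), 0 of 20 in COP nuclei (2 with p under 0.05, 0.0892% of all genes) and 0 of 4 in VLMC nuclei (0 with p under 0.05, 2.26% of all genes). At Day 5 they were 0 of 21 in Astro nuclei (1 with p under 0.05, 0.625% of all genes), 0 of 21 in Olig nuclei (3 with p under 0.05, 0.119% of all genes) and 0 of 21 in Micro nuclei (4 with p under 0.05, 0.121% of all genes), and in cells 0 of 3 in microglia (1 with p under 0.05, 0.262% of all genes), 0 of 10 in COP (1 with p under 0.05, 1.25% of all genes), 0 of 13 in OPC (4 with p under 0.05, 3.24% of all genes) and 0 of 10 in endothelial cells (4 with p under 0.05, 0.948% of all genes). Cdh5, the endothelial cadherin, was at 0.25 on the log2 scale in endothelial cells (295.1 CPM after vehicle and 354.3 CPM after FGF1, edgeR FDR 0.401).

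The 5 largest differences per type among the genes not called in tanycytes, ependymal cells and astrocytes were described by the same values. In Tany nuclei at Day 1 they included Pcdh19 (0.80, SE 0.501), Cdh20 (0.78, SE 0.509), Cdh19 (0.67, SE 0.433) and Cdh23 (-1.26, SE 0.811). In Epend nuclei Cdh2 (0.71, SE 0.382), Pcdh7 (-0.24) and Pcdh9 (-0.23) were not called. In Astro nuclei at Day 1 Cdh23 was at -1.30, Cdh22 at 0.99, Pcdh7 at 0.59 and Cdh20 at 0.53. In all of these the FGF1 and vehicle mice overlapped.

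Cdh23, a cadherin of hair-cell stereocilia, had a single library behind its values. By total UMIs it was at a median of 494.2 CPM over the types of vehicle mouse 3 at Day 1 and was at 406.7 CPM or more in every one of them, while the medians of the other 5 Day 1 mice were 42.5 to 174.4 CPM. Without this mouse its log2 fold change turned positive, 0.26 in Tany and 0.96 in Astro. Cdh23 overlaps Vsir on the other strand.

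In Astro nuclei at Day 5 Cdh22 was at -0.96 (SE 0.481, edgeR FDR 0.406), Cdh11 at 0.92 (SE 0.385, edgeR FDR 0.295), Cdh20 at 0.72 (SE 0.379), Pcdh9 at 0.56 and Cdh7 at 0.55 on the log2 scale. None of these 5 was called by edgeR. They were picked for the size of the difference with 2 mice a group, so a gap between the arms is not read as a result. For Cdh22 that gap was narrow, with 47.1 and 50.1 normalized CPM in the FGF1 mice and 52.1 and 176.5 in the vehicle mice. Cdh22 thus had the opposite sign to its call in whole astrocytes and Cdh11 the same sign. In ependymal cells 0 of 6 genes were called by edgeR, against 1.28% of all genes, and 2 of the 6 had an unadjusted p under 0.05, Pcdh10 (-0.48, SE 0.175, edgeR FDR 0.188) and Pcdh17 (-0.39, SE 0.190, edgeR FDR 0.365). Cdh7, which among the cells was highest in this type, was at -0.18 and Cdh2 at -0.15. In whole astrocytes Cdh13 (0.54, edgeR FDR 0.174) and Cdh19 (-0.43, edgeR FDR 0.0641) were not called, nor was Pcdh1 (-0.63) in tanycytes. None of the 15 tests of clustered protocadherins was called by edgeR (3 with an unadjusted p under 0.05), against 4.83% of all genes in the 6 types of cells that held these tests, so nothing is read from this count.

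Neuron labels gave no call by edgeR on either day. Over 10 neuron labels at Day 1 these were 0 of 150 tests (14 with an unadjusted p under 0.05), against 0.0585% of all tests over all genes there, and over 6 labels at Day 5 0 of 95 tests (13 with p under 0.05), against 0.215%. Among the nuclei labelled unmap, 0 of 25 genes were called at Day 1 (3 with p under 0.05) and 0 of 26 at Day 5 (8 with p under 0.05), and 0.0% of all genes on both days. At Day 5, for example, 0 of 17 genes were called in Glu4 (3 with an unadjusted p under 0.05, 0.0845% of all genes called), 0 of 12 in n06.Oxt (1 with p under 0.05, 0.103% of all genes) and 0 of 20 in n16.Rgs16/Vip (4 with p under 0.05, 0.0782% of all genes). The lowest FDR was that of Cdh9 in the oxytocin neurons, the type in which it was highest. At Day 1 it was at 677.4, 777.5 and 943.3 normalized CPM in the vehicle mice and at 155.0 and 249.3 CPM in the 2 FGF1 mice with enough nuclei. The groups did not overlap. For Cdh9 the log2 fold change was -1.94 (SE 0.375, edgeR FDR 0.0805), short of the threshold, where 0.0288% of all genes were called. At Day 5 it was 0.42 (edgeR FDR 0.953), with 558.9 and 687.9 CPM in vehicle and 548.3 and 1141 CPM in FGF1 mice. The difference between the days was 2.34 (SE 0.507, unadjusted p = 0.000104, edgeR FDR 0.312). Over all types of nuclei 0 of 221 tests of a difference between the days were called by edgeR, against 0.00784% over all genes, and 8 had an unadjusted p under 0.05.

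As a description with no test, the median log2 fold change of all tested genes of the group, called ones included, was above 0 in 11 of 11 types of Day 5 nuclei (0.12 to 0.32, against -0.02 to 0.03 for all genes), in 12 of 18 types of Day 1 nuclei (-0.39 to 0.31) and in 1 of 8 types of Day 5 cells (-0.48 to 0.13). The types share their mice, so these counts are not independent.

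The partners of these genes were followed from lists. The catenins and junction partners gave 0 calls up and 1 down of 114 tests in Day 1 nuclei, 0 of 97 in Day 5 nuclei and 4 up of 74 in Day 5 cells, beside 1.05%, 0.288% and 4.17% of all tests over all genes. In Epend nuclei at Day 1 alpha-T-catenin (Ctnna3) fell by 1.26 on the log2 scale (SE 0.361, edgeR FDR 0.0198), and so did 2 members of the cadherin superfamily, Cdhr3 (-1.75, SE 0.458, edgeR FDR 0.0121) and Fat3 (-1.30, SE 0.359, edgeR FDR 0.0158), where 19.0% of all genes were called. The summed ependymal markers given above were also lower in these nuclei, with means of 1567 CPM after FGF1 and 4195 CPM after vehicle, and their part in the 3 falls was not tested. In whole astrocytes at Day 5 4 of 11 catenins and partners rose, where 12.6% of all genes were called, among them alpha-catenin Ctnna1 (0.81, SE 0.127, edgeR FDR 9.09e-05), beta-catenin Ctnnb1 (0.68, SE 0.128, edgeR FDR 0.000652) and delta-catenin Ctnnd2 (0.49, SE 0.114, edgeR FDR 0.00489). Their median over the list was 0.23 against -0.02 for all genes tested.

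In the list of the WAVE complex and its kinases, the Src-family kinase Fyn carried most calls. It rose in COP nuclei at Day 5 by 2.47 (SE 0.302, edgeR FDR 1.24e-05), and in whole astrocytes (0.73), oligodendrocytes (0.54), COP (0.52) and tanycytes (0.50). The change in COP nuclei exceeded that at Day 1 by 2.56 (SE 0.459, edgeR FDR 0.0182), where 0.102% of all genes differed between the days. Fyn is also one of the 7 COP markers, whose sum moved with it in the Day 5 COP nuclei. Cyfip2, a subunit of the WAVE complex, fell by 0.51 in OPC (SE 0.149, edgeR FDR 0.0445). The list as a whole gave 0 of 136 calls in Day 1 nuclei (1.05% over all genes), 1 of 104 in Day 5 nuclei (0.288%) and 6 up and 1 down of 81 in Day 5 cells (4.17%). Other genes of the cadherin superfamily gave 2 down of 73, 0 of 69, and 3 up and 1 down of 40 in the same order, and the regulators of the clustered protocadherins gave 0 of 117, 0 of 95 and 1 of 73, to be read beside the same shares.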

How the data were processed

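Hypothalamic nuclei and cells were captured with a 10x Chromium 3′ v2 kit, and per the study's methods the authors aligned reads to GRCm38 with Cell Ranger 1.2, counting introns for nuclei and not for cells. The deposited tables used here hold raw UMI counts per gene and barcode as the authors left them after discarding barcodes of low or high gene number, and predicted doublets (Scrublet) in cells only. The paper states that neurons were also removed from the cells because of poor quality. It further describes removal of clusters of cells that came mostly from 1 sample or held markers of another type. The deposited metadata give cell type labels for nuclei, cluster numbers for cells, the batch, and the percent of mitochondrial and ribosomal UMIs that the authors computed per barcode. The normalized tables were not used. The strand setting of counting is not given in the sources used here.

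Cell clusters were named from markers (a marker found in at least 10% of the cells of a cluster and at 2 times its share elsewhere, at least 3 markers). UMIs were summed per mouse and type, with at least 10 cells or nuclei per mouse and at least 2 mice a group, and tested in R 4.3.3 with edgeR 4.0.16 (quasi-likelihood test, TMM, filterByExpr). Adjusted p-values are Benjamini-Hochberg over all genes of a type, with calls at FDR 0.05. Each library was 1 mouse. Levels in the vehicle mice were TMM-scaled CPM over all types, values beside a difference were TMM-normalized CPM of the genes tested, and CPM by total UMIs were used across arms and for marker sums. Exact permutation tests used scipy 1.17.1. Gene positions and spans came from GENCODE release 21 for mouse on GRCm38. Alternatives were RLE scaling, no filter, DESeq2 1.42.0, at least 20 cells or nuclei, the stated limits of 5% in nuclei and 20% in cells on mitochondrial and ribosomal UMIs, thinning to 1300 UMIs per nucleus or 700 per cell, batch or replicate blocks, leaving out each mouse and each cluster alone. The test was checked on simulated counts. Intervals and limits cover counting error only.

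Named were the genes called at that FDR, the genes at 100 CPM or more and at 3 times the second type in the vehicle mice, the 5 largest differences in tanycytes, ependymal cells and astrocytes, and at most 4 called genes per type from the other lists, with clustered protocadherins given mainly as counts. The genes and lists were chosen with earlier results of these data known.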

Additional observations from a re-analysis of the deposited data

Results flagged for a closer look

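The difference in Cdh13 between FGF1 and vehicle mice in tanycytes of the Day 5 cells exceeded that in 3 of 4 other types by tests of the difference itself. On log2(CPM + 1) it exceeded that in OPC by 1.06, that in oligodendrocytes by 1.01 and that in astrocytes by 0.85, with exact permutation p-values adjusted over 4 pairs of 0.0173, 0.0173 and 0.0288. The difference from COP was -0.12 (p = 0.972, exact permutation). Within batches, where the smallest exact permutation p is 0.0312, the adjusted p was 0.0833 for each of the 3, with the direction in 6, 5 and 5 of 6 batches. The pairs were chosen after the values were seen.

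Cdh1 was found in cluster 20 of the cells, which has no name and is in none of the comparisons above. It held 22 of 111636 UMIs there, or 197.1 CPM (exact 95% interval 123.5 to 298.3), in 18 of 67 cells (26.9%, exact interval 16.8 to 39.1%) from 3 of the 8 mice with such cells. The 67 cells pool both arms, 45 from FGF1 and 22 from vehicle mice. These intervals cover counting error in the pool and not the spread between mice. The limit that a count of 0 allows at this depth, 3 counts, is 26.9 CPM. In all other cells 13 of 54823 held a Cdh1 UMI (0.0237%), with a median depth of 1291 UMIs against 1458 in cluster 20. The markers used for naming had no class for arachnoid barrier cells, which the paper names among its cells. Whether cluster 20 holds them was not tested.

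Of 36 groups of 6 mice checked for a mouse far from the rest, 0 held one, where about 1 in 20 is flagged by chance.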

How the results depend on the processing

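The number of calls among these genes was 3 in Day 1 nuclei, 2 in Day 5 nuclei, 6 in Day 5 cells and 0 for the difference between days. With no filter on low counts Day 1 nuclei gave 5. After thinning the counts were 1, 0 and 2 in the 3 datasets, with at least 20 nuclei Day 5 nuclei gave 0, and with each cluster alone the cells gave 3. Leaving out each mouse gave 2 to 5 calls in Day 1 nuclei (5 without FGF1 mouse 1), 1 to 12 in Day 5 nuclei (12 without vehicle mouse 28, where the lone mouse left in an arm is assumed to vary like the other arm), 3 to 8 in cells (3 without vehicle mouse 20) and 0 to 1 for the difference between days (1 without FGF1 mouse 2). DESeq2 gave 3, 2, 6 and 0. The share of all tests over all genes that was called moved as well. In Day 1 nuclei it ran from 0.306% without vehicle mouse 1 to 1.21% without FGF1 mouse 1. In cells it ran from 2.45% without vehicle mouse 20 to 5.58% without vehicle mouse 35. Changes in the counts above are therefore not read as changes in these genes. The batch block gave no value for the difference between days. Replicate numbers did not pair the Day 1 mice (correlations of same-numbered mice -0.23, -0.33 and 0.46 over 10540 genes), and the replicate block left 2 calls there. Cdh13 was called under all alternatives that gave a value for it, 14 in Tany, 12 in Epend and 19 in tanycytes. Its log2 fold changes were 2.88 to 3.92 in Tany, 2.74 to 3.20 in Epend and 1.31 to 1.53 in tanycytes. In Epend it had no value after thinning or with at least 20 nuclei, so the Epend call was not checked at equal depth. The call was lost for Cdh20 in Olig in 8 of 14 alternatives and in COP in 2 of 10 (FDR 0.138 thinned and 0.0546 without vehicle mouse 38, again with 1 vehicle mouse left), for Pcdh17 in COP in 5 of 10 and in tanycytes in 11 of 19, for Cdh11 in 8 of 19, for Pcdh9 in tanycytes in 8 of 19 and in oligodendrocytes in 1 of 19 (FDR 0.0522 without vehicle mouse 25), and for Cdh22 in 1 of 19 (thinned, FDR 0.0644). Leaving out mice gave -1.85 to 0.26 for Cdh23 in Tany and -1.90 to 0.96 in Astro at Day 1 (positive without vehicle mouse 3), -1.18 to 0.21 for Pcdh7 (positive without FGF1 mouse 3) and -0.57 to 0.088 for Pcdh9 (positive without vehicle mouse 3) in Epend, and -0.019 to 0.25 for Pcdhga12 in ependymal cells (negative without FGF1 mouse 28). Restricted levels numbered 3, and 4 by total UMIs, which added Pcdh18. The cause of these changes was not tested. In Tany and Epend nuclei and in COP nuclei the UMIs of the vehicle mice, as few as 4 a mouse, limit the precision.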

Other observations

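In the oxytocin neurons at Day 1, where edgeR did not call Cdh9, the share of nuclei with a Cdh9 UMI was described and not tested. It was 81.2 to 88.1% in the 3 vehicle mice (21 to 42 nuclei each) and 27.3 and 45.9% in the 2 FGF1 mice (33 and 37 nuclei). Over all types, the Day 1 FGF1 mice had lower median UMIs per nucleus, on which such shares depend. At Day 5 the shares were 74.0 and 76.9% after vehicle and 62.5 and 85.7% after FGF1.

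Several genes took another place among the types in the FGF1 mice. In a count added after the values were seen, over the 17 types of Day 1 nuclei with a value in both arms, 14 of the 25 genes that reached 20 CPM had the same highest type, and 13 of 19 did over the 11 types of cells. Among those that did not, Cdh13 was highest in n16.Rgs16/Vip after vehicle and in Tany after FGF1, Cdh20 in Astro and in COP, and Cdh22 in whole tanycytes and in whole astrocytes. These orders were not tested, and neighbours in them often lie within the spread over mice.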
